A study of Bos taurus with 64 samples.

Results

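bta-miR-103 and bta-miR-107, called miR-103 and miR-107 from here on without the cattle prefix, are a pair of closely related microRNAs (miRNAs), short RNAs that lower the output of messenger RNAs carrying a match to their 5′ end. They were chosen by name, as 2 of the 1030 miRNA names in the count table, and both passed the filter on low counts that left 318 miRNAs for testing. In mammals their genes lie in introns of the pantothenate kinase genes, whose enzymes catalyse the committed step of coenzyme A synthesis. The cattle gene table of RefSeq (ARS-UCD2.0) places MIR103-1 within PANK3, MIR103-2 within PANK2 and MIR107 within PANK1, so miR-103 has 2 annotated loci and miR-107 has 1. The messenger RNAs of these host genes were not measured here.

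In mice, raising miR-103 or miR-107 in liver or fat impairs glucose handling, and lowering them improves insulin sensitivity, in part through caveolin-1, a membrane protein that stabilises the insulin receptor. The mature forms carry the same seed and are nearly identical along the rest of their length. Reads of the pair can therefore be hard to assign, and the sources used here do not give how the counting program divided them. They also share part of the seed with the miR-15 and miR-16 family. Skeletal muscle is a main site of insulin-stimulated glucose uptake.

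The miRNAs were sequenced from skeletal muscle of Charolais steers, a beef breed, and Holstein-Friesian steers, a dairy breed. Within each breed, animals were classed as High-RFI or Low-RFI. Residual feed intake (RFI) is an animal's intake minus the intake predicted from its weight and gain, so Low-RFI animals are the more feed-efficient. All steers were fed zero-grazed grass in the earlier phase of 70 days and, after 14 days of acclimatisation, a high-concentrate diet of 86% rolled barley in the later phase of 70 days. Muscle was taken at the end of each phase, which gave 8 groups of 8 libraries. Diet, phase order and the steers' age cannot be told apart. In all 59 steers contributed, and 5 of them were sampled on both diets. Ages and the sampled muscle are not given in the labels.

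Total counts ran from 4795950 to 12245155 per library, with a median of 8143027. The miRNAs of striated muscle (miR-1, miR-133a, miR-133b, miR-206, miR-208b, miR-499 and miR-486) summed to between 87915 and 333486 CPM (a miRNA's reads relative to the TMM-adjusted size of its library), and this was the most abundant of 8 cell-type lists in 63 of 64 libraries. By mean, miR-486 (104825 CPM) and miR-133a (74317 CPM) were its most abundant members. Which cells the miR-486 came from was not tested. The red-cell miRNAs miR-451 and miR-144 summed to between 300.2 and 49575 CPM, and 7 white-cell miRNAs to between 288 and 2609 CPM. The epithelial list had a median of 2.33 CPM and the neuronal list one of 1.83 CPM. The libraries thus differed widely in miRNAs of blood cells. A level in bulk muscle cannot tell apart fewer cells of a type and less RNA per cell.

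Both members were moderately abundant. miR-103 ranked 66 and miR-107 ranked 87 of 318 by mean CPM. miR-103 averaged 273.7 ± 147 CPM (SD, n = 64), with a lowest value of 149.7, a median of 229 and a highest of 976. miR-107 averaged 98.0 ± 53.3 CPM (SD, n = 64), with a lowest value of 48.5, a median of 82.3 and a highest of 333. Behind these values stood 604.5 to 8961 counts of miR-103 and 212 to 3366 counts of miR-107 per library. miR-107 made up 26.4% ± 2.32 of the pair (SD, n = 64). The count of miR-103 was fractional (more than 0.001 from a whole number) in 12 grass and 14 concentrate libraries, and that of miR-107 in 0. How the counter reached fractional values, and its effect on the level of miR-103 relative to miR-107, was not tested.

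On grass the 4 groups lay close together. For miR-103 the group means were 211 ± 48.3 CPM in Low-RFI Charolais, 221 ± 50.6 in High-RFI Holstein-Friesian, 222 ± 63.3 in High-RFI Charolais and 227 ± 73.7 in Low-RFI Holstein-Friesian (SD, n = 8 each). The values of single grass libraries ran from 149.7 to 374 CPM. For miR-107 the grass means ran from 80.0 ± 21.9 CPM in High-RFI Charolais to 84.1 ± 26.7 in High-RFI Holstein-Friesian, and single libraries from 52.9 to 136 CPM. All 4 grass groups overlapped for both members.

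On concentrate the groups were more spread. Low-RFI Holstein-Friesian had the lowest mean of miR-103, at 237 ± 70.3 CPM, within the range of the grass libraries. High-RFI Charolais followed at 325 ± 271 CPM, where the lowest library had 161, the median was 226 and the highest had 976. High-RFI Holstein-Friesian had 343 ± 130 CPM (lowest 210.2, median 307, highest 565). Low-RFI Charolais was highest at 403 ± 205 CPM, with a lowest library of 209, a median of 350.3 and a highest of 799. miR-107 had the same order on concentrate, from 78.3 ± 23.8 CPM in Low-RFI Holstein-Friesian through 113 ± 89.0 and 115 ± 44.4 to 147 ± 90.5 in Low-RFI Charolais. When the 8 groups were ordered by mean, each neighbouring pair differed by less than 1 SD for either member.

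**Figure D1:**
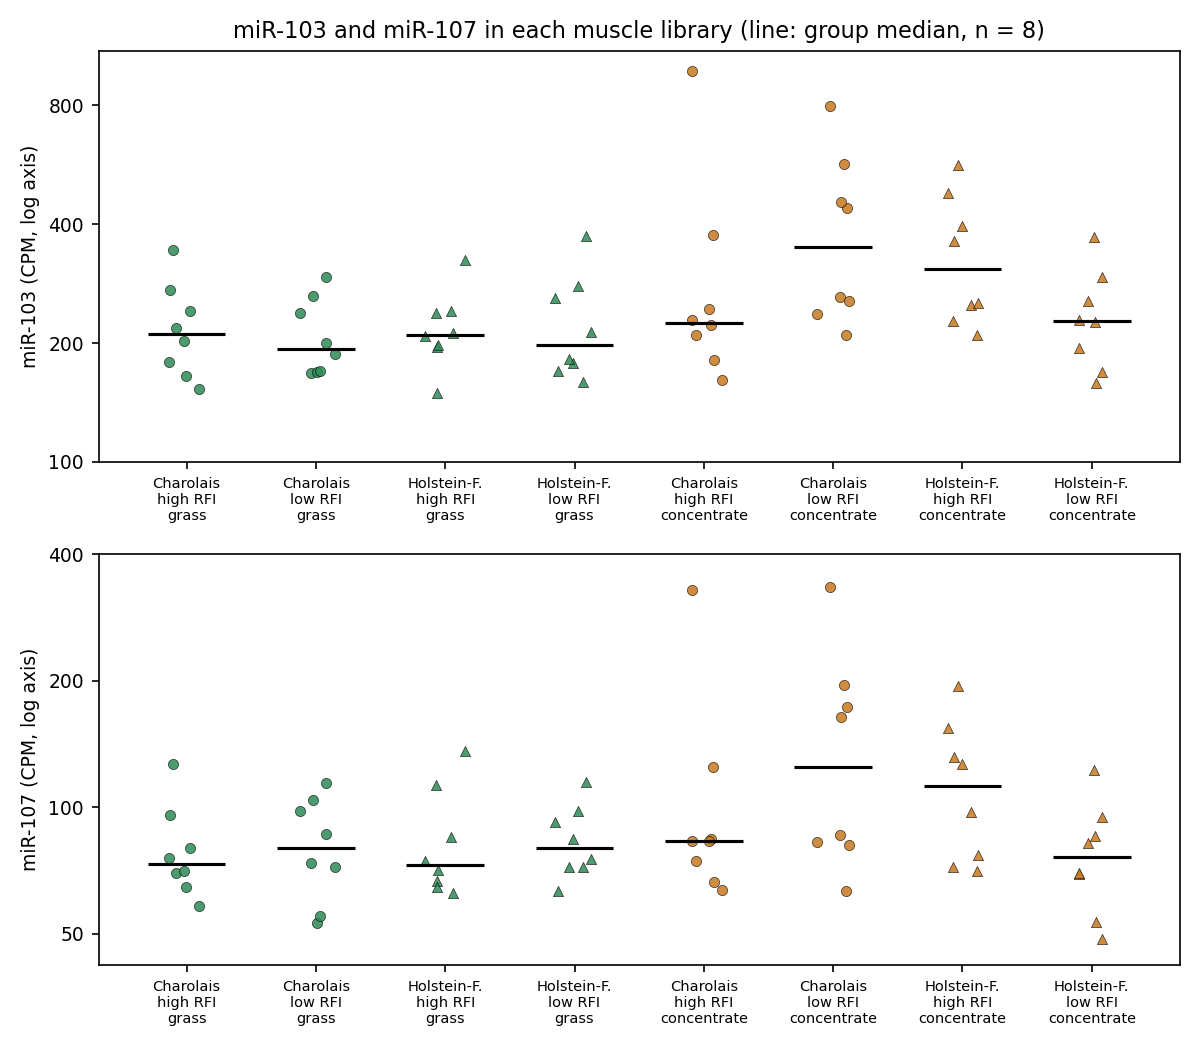
Level of miR-103 (upper panel) and miR-107 (lower panel) in each of the 64 libraries, in CPM on a log axis, by breed, RFI class and diet. Circles are Charolais and triangles Holstein-Friesian, green is grass and orange concentrate, and the line is the median of 8 libraries. The concentrate groups reach 976 CPM for miR-103 and 333 CPM for miR-107, against 374 and 136 CPM on grass.

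The comparison of diets asked whether muscle miRNAs differ between a forage and a cereal diet. Both members were higher on concentrate. miR-103 had 220 ± 57.2 CPM on grass and 327 ± 186 on concentrate (SD, n = 32 each), and its medians were 206 and 251. miR-107 had 82.5 ± 21.2 CPM on grass and 114 ± 69.5 on concentrate, with medians of 74.97 and 83.5. The ranges of the diets overlapped, and the means lay further apart than the medians, with a minority of concentrate libraries far above all grass libraries. For miR-103, 27 of 32 concentrate libraries were above the grass median and 9 were above every grass library, 6 of them Charolais and 3 Holstein-Friesian. For miR-107 these numbers were 22 and 7, and all 7 were among the 9.

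Averaged over breeds, the log2 difference between concentrate and grass was 0.55 ± 0.13 (SE) for miR-103, a fold of 1.46 (adjusted p = 0.0011, edgeR quasi-likelihood test with Benjamini-Hochberg adjustment over 318 miRNAs). For miR-107 it was 0.43 ± 0.14, a fold of 1.34 (adjusted p = 0.0127, same edgeR test). In this comparison 34% of the tested miRNAs were called at an adjusted p under 0.05 and 17.9% were called higher, so a call was common. miR-103 had the 24th and miR-107 the 36th largest difference of 318. The call of miR-107 was lost without High-RFI Charolais concentrate replicate 3 (log2 difference 0.32, adjusted p = 0.0534 by edgeR), while that of miR-103 remained at 0.43 (adjusted p = 0.00568). With total counts in place of TMM scaling, the median difference of all miRNAs moved from 0.014 to -0.24, and neither member was called (0.27 and 0.15). Relative to that median the values were 0.51 and 0.39.

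In Charolais the diet difference was 0.74 ± 0.19 for miR-103 (adjusted p = 0.00288) and 0.67 ± 0.19 for miR-107 (adjusted p = 0.00772, both edgeR), where 20.8% of miRNAs were called and 9.43% were called higher. There, 14 of 16 concentrate libraries exceeded the grass median for miR-103 and 12 of 16 for miR-107. In Holstein-Friesian it was 0.35 ± 0.19 (adjusted p = 0.16) and 0.18 ± 0.19 (adjusted p = 0.524, both edgeR), neither called, where 24.2% of miRNAs were. The breeds were not shown to differ in this respect. The difference between their diet effects was -0.39 ± 0.27 for miR-103 (adjusted p = 0.383) and -0.495 ± 0.27 for miR-107 (adjusted p = 0.302, both edgeR), where 3.46% of miRNAs were called. With 1 library left out these values ran from -0.51 (without High-RFI Holstein-Friesian concentrate replicate 2) to -0.14 (without High-RFI Charolais concentrate replicate 3) and, for the same libraries, from -0.62 to -0.26. In Charolais, miR-107 too was not called without High-RFI concentrate replicate 3 (0.45, adjusted p = 0.10).

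**Figure D2:**
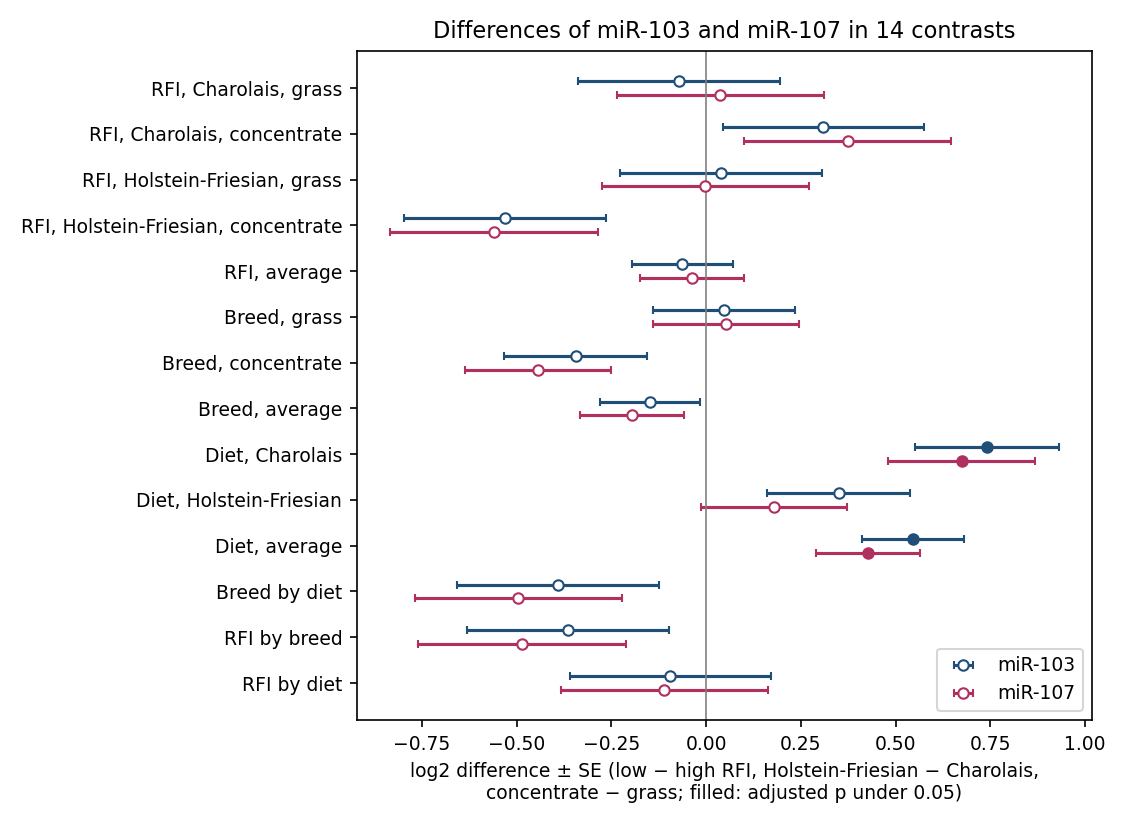
Log2 differences of miR-103 (blue) and miR-107 (red) in 14 contrasts of the 8 groups, as estimate ± SE from the edgeR model. Filled points have an adjusted p under 0.05. Only the diet contrasts in Charolais and on average are filled, at 0.74 and 0.55 for miR-103 and 0.67 and 0.43 for miR-107, and the pair lies close together in each contrast.

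Some miRNAs of blood cells were higher on concentrate, as both members were. miR-451, which is made in red-cell precursors, had a median of 2303 CPM on grass and 4938 on concentrate, and differed by 1.30 ± 0.37 on the log2 scale (adjusted p = 0.00526, edgeR). Of the red-cell list 2 of 2 and of the white-cell list 5 of 7 were called higher on concentrate, and of the striated-muscle list 1 of 7 (miR-1), against 17.9% of all tested miRNAs. In Charolais 2 of 2 and 3 of 7 blood-cell miRNAs were called higher, against 9.43% of all tested miRNAs. In Holstein-Friesian 0 of 2 and 2 of 7 were called, the latter higher, against 24.2% called in either direction. With total counts in place of TMM scaling 0 of the 2 and 0 of the 7 blood-cell miRNAs were called. In that scaling 7 of all 318 miRNAs were called higher and 118 lower for diet averaged over breeds. The red-cell sum ran from 300.2 to 11355 CPM on grass and from 680 to 49575 on concentrate, and the white-cell sum from 288 to 1376 and from 431 to 2609. Of the 9 concentrate libraries above every grass library in miR-103, 8 (88.9%) were also above every grass library in miR-451, for which there were 9 such libraries. All 7 such libraries of miR-107 were also above every grass library in the white-cell miRNA miR-142-5p, which had the same 7.

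Within each diet, miR-103 and miR-107 followed miR-451 and miR-142-5p across libraries. Pearson's r was computed on log2 CPM after each group's mean had been subtracted. Against miR-451 it was 0.87 on grass and 0.89 on concentrate for miR-103, and 0.71 and 0.86 for miR-107 (n = 32 each). Against miR-142-5p it was 0.88 and 0.94 for miR-103, and 0.82 and 0.93 for miR-107. Spearman's rho lay between 0.65 and 0.93 in these 8 relations. Permutation p-values of r, adjusted by Benjamini-Hochberg over 12 relations, were 1.71e-05 in 7 of the 8, where the raw p was the smallest that 100000 resamples can give (1e-05), and 3.0e-05 for miR-107 with miR-451 on grass. Without the 2 libraries farthest from the median deviation of the blood-cell miRNA, r ran from 0.66 to 0.92. These 8 relations therefore did not rest on the extreme libraries. The other white-cell miRNAs were less uniform. Over all 64 libraries, r with miR-103 was 0.92 for miR-142-3p and 0.87 for miR-223. It was 0.43 for miR-150, 0.30 for miR-155, 0.18 for miR-342 and 0.092 for miR-146a. With miR-107 these values were 0.86, 0.80, 0.44, 0.21, 0.13 and 0.089.

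**Figure D3:**
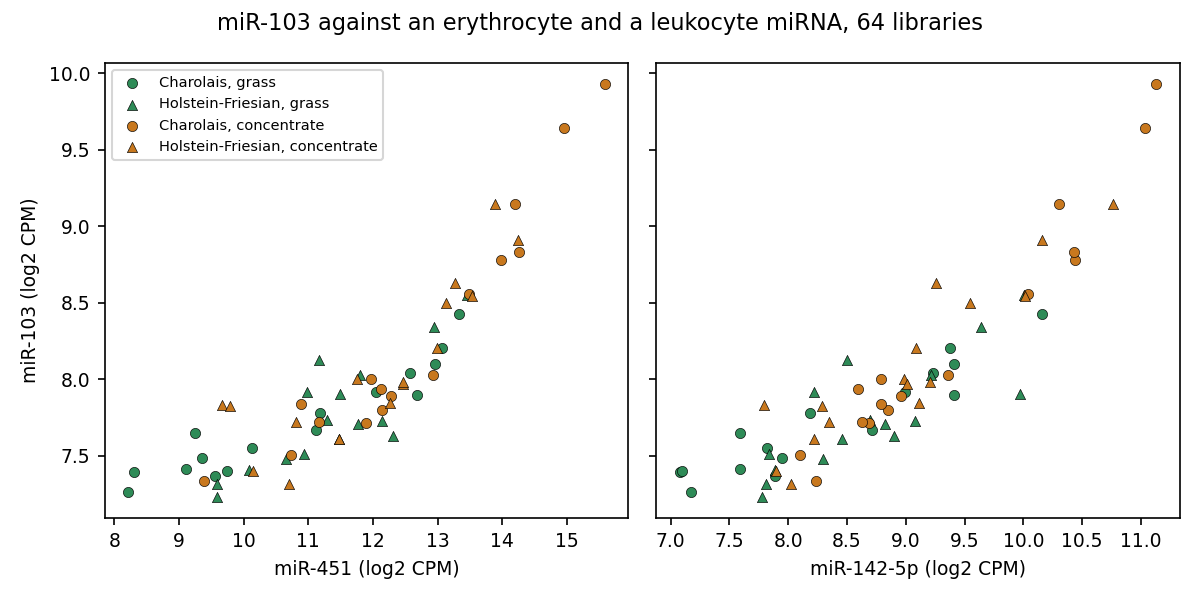
miR-103 (vertical axis) against miR-451 (left) and miR-142-5p (right), all in log2 CPM, for 64 libraries. Circles are Charolais and triangles Holstein-Friesian, green is grass and orange concentrate. Libraries of both diets and both breeds lie along the same band. After subtraction of the group means, which the plot does not show, r within grass and concentrate was 0.87 and 0.89 for miR-451 and 0.88 and 0.94 for miR-142-5p.

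When the red-cell list was added to the edgeR model as a covariate, an alternative chosen after seeing the data, the diet difference was 0.091 for miR-103 (adjusted p = 0.395) and -0.024 for miR-107 (adjusted p = 0.861). With the white-cell list it was 0.10 (adjusted p = 0.306) and -0.014 (adjusted p = 0.925). In Charolais the corresponding values were 0.027 and -0.025 with the red-cell list, and 0.081 and 0.025 with the white-cell list. Neither member was called in these fits. Which of these quantities depends on which was not tested.

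**Figure D4:**
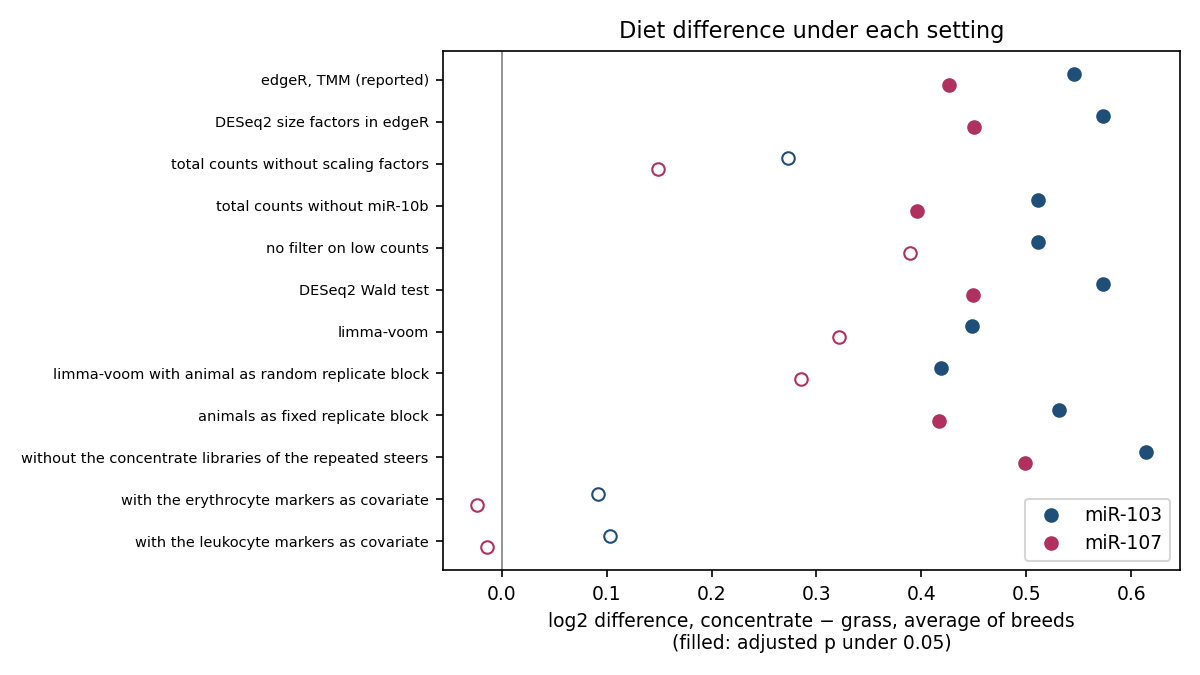
Log2 difference between concentrate and grass, averaged over breeds, for miR-103 (blue) and miR-107 (red) under the reported edgeR model and 11 alternatives. Filled points have an adjusted p under 0.05. miR-103 is filled except with total counts without scaling factors (0.27) and with a blood-cell covariate (0.091 and 0.10), and miR-107 is open in 6 of the alternatives.

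The ratio of miR-107 to miR-103 within a library does not depend on library scaling. Its log2 value ran from -1.76 to -1.08 on grass (median -1.43) and from -1.80 to -1.26 on concentrate (median -1.56). The mean was -1.42 ± 0.18 on grass and -1.55 ± 0.13 on concentrate (SD, n = 32 each), and 26 of 32 concentrate libraries were below the grass median. The diets overlapped, with a difference of -0.13 ± 0.040 (SE) and an adjusted p of 0.025 in a two-sided permutation test within breed and RFI class, adjusted over 11 comparisons. miR-107 made up 27.3% ± 2.54 of the pair on grass and 25.5% ± 1.68 on concentrate. The counting error of the log2 ratio had a median of 0.065 per library, below the SD between libraries.

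By breed, the ratio was -1.41 ± 0.21 on grass and -1.59 ± 0.12 on concentrate in Holstein-Friesian (SD, n = 16 each), a difference of -0.18 ± 0.063 (adjusted p = 0.0328, permutation). The adjusted p rose to between 0.0525 and 0.068 (permutation) without any of 12 single libraries. These were grass replicates 1, 4 and 6 and concentrate replicates 3, 4, 7 and 8 of High-RFI steers, and grass replicates 3, 6 and 7 and concentrate replicates 4 and 7 of Low-RFI steers. In Charolais it was -1.42 ± 0.16 and -1.50 ± 0.12, a difference of -0.077 ± 0.051 (adjusted p = 0.394, permutation). Whether the breeds differ in this was not tested. On concentrate the ratio in Holstein-Friesian differed from that in Charolais by -0.088 ± 0.044 (p = 0.049, adjusted p = 0.18, permutation). RFI classes were not distinguished, with differences from -0.032 to 0.082 and adjusted permutation p from 0.692 to 0.884. Taken as a difference of group medians, the diet values were -0.12 on average and -0.14 in Holstein-Friesian, each with an adjusted p of 0.109. The ratio was not shown to follow miR-451 or miR-142-5p within a diet. Its r ran from -0.30 to 0.15, with adjusted permutation p from 0.121 to 0.879. Spearman's rho ran from -0.35 (miR-451 on grass, adjusted permutation p = 0.0714) to 0.15 (miR-142-5p on concentrate, adjusted permutation p = 0.439).

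**Figure D5:**
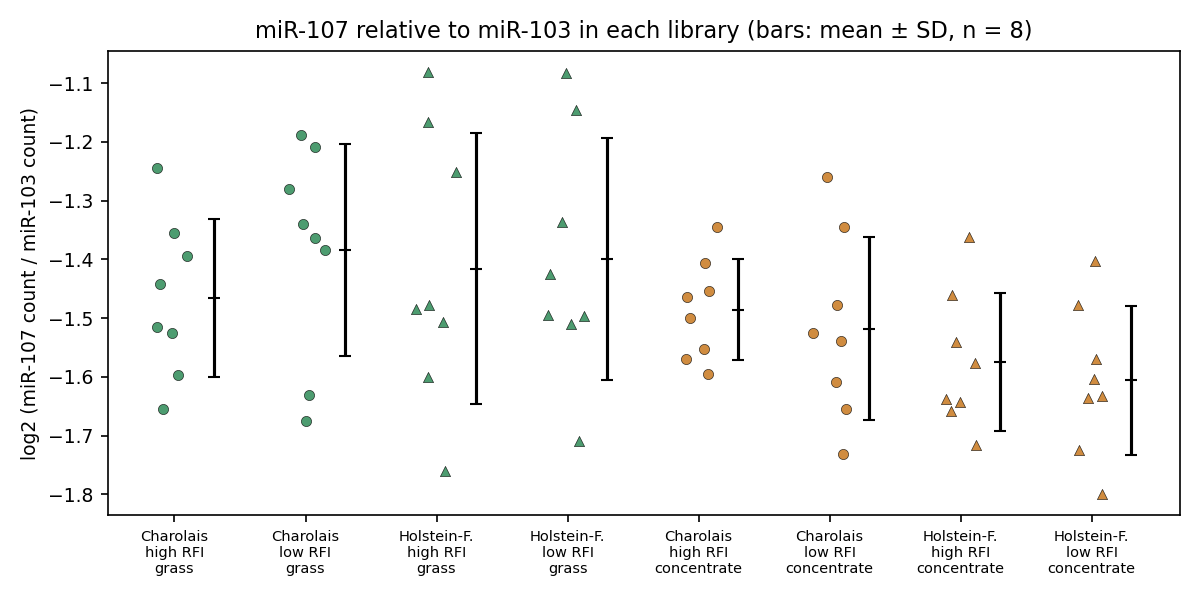
Log2 ratio of the miR-107 count to the miR-103 count in each library, by group. Circles are Charolais and triangles Holstein-Friesian, green is grass and orange concentrate, and bars are mean ± SD of 8 libraries. Group means lie between -1.47 and -1.38 on grass and between -1.61 and -1.49 on concentrate, with overlapping libraries.

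For breed, neither member was called. On grass the difference of Holstein-Friesian from Charolais was 0.047 ± 0.19 for miR-103 (adjusted p = 0.873) and 0.052 ± 0.19 for miR-107 (adjusted p = 0.87, both edgeR), where 30.2% of miRNAs were called. Their 95% intervals, -0.33 to 0.42 and -0.34 to 0.44, leave room for differences in either direction. On concentrate the values were -0.34 ± 0.19 (adjusted p = 0.331) and -0.44 ± 0.19 (adjusted p = 0.257, both edgeR), where 1.57% of miRNAs were called. The medians of the breeds were alike there, at 250.3 CPM in Charolais and 251 in Holstein-Friesian for miR-103, and at 83.5 and 83.8 for miR-107. Without High-RFI Charolais concentrate replicate 3 the differences on concentrate were -0.089 and -0.21. miR-451 differed by -0.90 ± 0.52 in the same direction (adjusted p = 0.35, edgeR), and its part in these values was not tested. Over 12 settings, which included the blood-cell covariates, the concentrate differences ran from -0.39 to -0.032 (miR-103) and from -0.50 to -0.13 (miR-107). Neither member was called there in any of these settings.

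Averaged over diets, Holstein-Friesian differed by -0.15 ± 0.13 in miR-103 (adjusted p = 0.421) and by -0.20 ± 0.14 in miR-107 (adjusted p = 0.29, both edgeR), where 21.7% of miRNAs were called. Without High-RFI Charolais concentrate replicate 3 these values were -0.020 and -0.076. Without Low-RFI Holstein-Friesian grass replicate 4 miR-103 was at -0.21, and without High-RFI Holstein-Friesian concentrate replicate 2 miR-107 was at -0.26. With the white-cell list as covariate both were called lower in Holstein-Friesian, at -0.21 (adjusted p = 0.0113) and -0.25 (adjusted p = 0.0161, both edgeR). In that fit 80 of 318 miRNAs were called in either direction. Without a covariate, 2 of the 7 white-cell miRNAs were themselves called higher in Holstein-Friesian, and 5 were not called. These 2 were miR-155 (0.44, adjusted p = 0.00664) and miR-146a (0.70, adjusted p = 0.00114, both edgeR). Their part in the calls of the pair was not tested. With the red-cell list neither was called, at -0.096 (adjusted p = 0.278) and -0.14 (adjusted p = 0.191, both edgeR). In the white-cell fit miR-103 was also called lower on grass (-0.24, adjusted p = 0.0496, edgeR), against 0.047 without the covariate. There 43 of 318 miRNAs were called higher and 50 lower.

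For RFI, which asked which miRNAs go with feed efficiency, neither member was called in any breed and diet. The background was 0% of miRNAs at an adjusted p under 0.05 in every RFI comparison, also with DESeq2 and limma-voom, and some miRNAs had an unadjusted p under 0.05. Their share was 4.72% on grass and 3.14% on concentrate in Charolais, 5.35% and 10.7% in Holstein-Friesian, and 3.46% on average. On grass the Low-RFI libraries differed from the High-RFI ones by -0.071 ± 0.27 (miR-103) and 0.037 ± 0.27 (miR-107) in Charolais, and by 0.039 ± 0.27 and -0.0024 ± 0.27 in Holstein-Friesian (adjusted p from 0.981 to 0.998, edgeR). The sign of these grass values turned under several alternatives.

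On concentrate the estimates of the breeds had opposite signs. In Charolais the Low-RFI libraries were at 0.31 ± 0.27 for miR-103 (adjusted p = 0.931) and 0.37 ± 0.27 for miR-107 (adjusted p = 0.878, both edgeR), and 7 and 5 of 8 exceeded the High-RFI median. In Holstein-Friesian they were at -0.53 ± 0.27 (unadjusted p = 0.0515, adjusted p = 0.443) and -0.56 ± 0.27 (unadjusted p = 0.0459, adjusted p = 0.429, both edgeR). There, 7 of 8 Low-RFI libraries lay below the High-RFI median for each member. The interaction of RFI with breed was -0.36 ± 0.27 (adjusted p = 0.699) and -0.49 ± 0.27 (adjusted p = 0.582, both edgeR), so a difference between breeds was not shown. It ran from -0.63 to -0.22 and from -0.74 to -0.32 when 1 library was left out, with the extremes without High-RFI Charolais concentrate replicate 3 and Low-RFI Charolais concentrate replicate 5.

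These RFI values moved with single libraries. Without High-RFI Charolais replicate 3 the Charolais differences on concentrate were 0.79 and 0.83 (adjusted p = 0.142 for each, edgeR), and without Low-RFI Charolais replicate 5 they were -0.023 and -0.021. In Holstein-Friesian they ran from -0.63 to -0.34 for miR-103 and from -0.66 to -0.36 for miR-107 when 1 library was left out. miR-451 differed by 0.49 ± 0.73 in Charolais and by -0.94 ± 0.73 in Holstein-Friesian, the same signs as the pair, and its part was not tested.

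Over all 64 libraries, miR-103 and miR-107 were each other's closest match by level among 317 other tested miRNAs. Likeness was Pearson's r of log2 CPM after subtracting each group's mean, over 64 libraries, given as a description. It was 0.954 for the pair, 0.865 within grass and 0.983 within concentrate. Within grass the partner was not the closest match. There miR-103 was closer to miR-93 (0.922), miR-142-5p (0.879), miR-25 (0.875) and miR-451 (0.870), and miR-107 to miR-25 (0.899). The 317 miRNAs were not all ranked within a diet, so others may be closer too. Over all 64 libraries, the next for miR-103 were miR-93 (0.94), miR-25 (0.94), miR-142-3p (0.92) and miR-17-5p (0.92). The next for miR-107 were miR-25 (0.94), miR-106b (0.91), miR-93 (0.91) and miR-17-5p (0.88). miR-17-5p belongs to the miR-17-92 cluster and miR-25, miR-93 and miR-106b to its paralogous cluster, while miR-142-3p is made in blood-forming cells. The median over all 317 was -0.081 for miR-103 and -0.087 for miR-107. Among striated-muscle miRNAs, r ran from -0.67 (miR-1) to 0.031 (miR-486) for miR-103.

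Of the miR-15 and miR-16 family, 8 names were listed and 7 were tested, miR-503-5p being too low. On concentrate miR-16b (0.37 ± 0.12), miR-16a (0.20 ± 0.076) and miR-15b (0.46 ± 0.14) were higher, and miR-497 (-0.25 ± 0.072) and miR-424-5p (-0.86 ± 0.11) were lower (adjusted p from 9.57e-10 to 0.0374, edgeR). The remaining members, miR-15a (0.14) and miR-195 (-0.087), were not called. These 5 of 7 (71.4%) compare with 34% of all tested miRNAs, and the family median was 0.14, against 0.014. miR-16b and miR-15b, like miR-103 and miR-107, were also called higher in Charolais. There miR-497 was called lower (-0.28, adjusted p = 0.0436, edgeR), and miR-424-5p was called lower in both breeds. This made 4 of 7 (57.1%) in Charolais and 1 of 7 (14.3%) in Holstein-Friesian, against 20.8% and 24.2% of all tested miRNAs. With total counts the 3 higher calls were lost, miR-16a turned to -0.073 and miR-15a to -0.12, the 2 lower calls remained and miR-195 was also called lower (-0.33, adjusted p = 0.0375, edgeR). In that scaling 7 of all 318 miRNAs were called higher and 118 lower, and the median of all was -0.24. Across libraries miR-16b (r = 0.89) and miR-15b (0.88) were close to miR-103, and miR-424-5p (-0.35) and miR-497 (-0.26) were not. By breed, 0 of 7 were called on grass, against 30.2% of all tested miRNAs. On concentrate and on average 1 of 7 (14.3%) was called (miR-15a, lower in Holstein-Friesian), against 1.57% and 21.7%. By RFI 0 of 7 were called, as were 0% of all tested miRNAs.

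Of 34 other miRNAs reported in mammals to act on insulin signalling or glucose uptake, 31 were tested and miR-96, miR-122 and miR-375 were too low. Averaged over breeds, 6 were called higher on concentrate and 4 lower. These 10 of 31 (32.3%) were close to the 34% of all tested miRNAs, and the list's median was -0.025, against 0.014 over all miRNAs. The most abundant that were higher were miR-29c (0.28 ± 0.078) and miR-93 (0.57 ± 0.14), followed by miR-144 (1.09 ± 0.37), which is a red-cell miRNA. miR-29 family members lower insulin signalling in muscle and fat cells of rodents. Those lower were miR-27b (-0.17 ± 0.058), miR-21-5p (-0.37 ± 0.11), miR-128 (-0.37 ± 0.096) and miR-181b (-0.30 ± 0.068). With total counts 0 were higher and 15 lower, where 7 of all 318 were higher and 118 lower. In Charolais 4 were higher (miR-15b, miR-93, miR-144 and miR-223) and 1 lower (miR-181b), 16.1% against 20.8% of all tested miRNAs. In Holstein-Friesian 2 were higher (miR-29b and miR-29c) and 3 lower (miR-21-5p, miR-128 and miR-181b), 16.1% against 24.2%. By breed on grass, 5 were higher in Holstein-Friesian (let-7i, miR-21-5p, miR-27a-3p, miR-27b and miR-143) and 5 lower (let-7f, miR-29a, miR-29c, miR-378 and miR-486), 32.3% against 30.2%. With total counts 4 were higher and 1 lower, where 47 of all 318 were higher and 3 lower. On concentrate 0 of 31 were called by breed, against 1.57% of all tested miRNAs. By RFI 0 of 31 were called in any comparison, as were 0% of all tested miRNAs.

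The 5 steers sampled on both diets showed no common direction for the pair. miR-103 went from 179 to 161 CPM, from 239 to 210.2, from 219 to 456, from 169 to 209 and from 343 to 376 CPM between grass and concentrate. In log2 terms this was a mean of 0.23 ± 0.50 (SD, n = 5), up in 3 and down in 2 (exact two-sided sign-flip permutation p = 0.5, where 0.0625 is the smallest possible). miR-107 changed by 0.11 ± 0.72, up in 2 of 5 (exact permutation p = 0.812), and the ratio by -0.13 ± 0.24, down in 4 of 5 (exact permutation p = 0.375). The steer with the largest increase of both members, 1.06 and 1.23, also had the largest increase of miR-451, at 3.09. This animal was labelled High-RFI on grass and Low-RFI on concentrate.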

How the data were processed

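The authors deposited estimated counts per miRNA name, not normalized, with a column for each of 64 libraries. Per the labels' protocols, the RNeasy Plus Universal kit was used for RNA and a TruSeq stranded kit for libraries. FastQC 0.11.8, cutadapt 2.6, R 3.4, edgeR 3.5 and the build ARS-UCD1.2 are named, per the submitters' processing notes, while no source used here names the aligner or counter. Of 1030 names, 226 had no count in any library and 60 had fractional counts. The name miR-2285b was dropped because 3 of its cells were empty. Counts were rounded to whole numbers before testing.

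Groups came from the labels. edgeR 4.0.16 (R 4.3.3, TMM, filterByExpr over 8 groups, robust quasi-likelihood, 56 residual degrees of freedom) was fitted to all 64 libraries, and 14 contrasts were tested with Benjamini-Hochberg adjustment over 318 miRNAs at 0.05. Names left out held 0.00592% of counts. TMM factors ran from 0.511 to 2.43. The scripts were tested on simulated data. Log2 CPM used a prior count of 2, and the ratio was tested by exact permutation or 100000 resamples. Alternatives were other scalings, no filter, DESeq2 1.42.0, limma-voom (limma 3.58.1), a replicate block and single libraries left out. Blood-cell covariates were added after seeing the data. The members and lists were chosen with earlier results of these data known. Named miRNAs of a list were its 3 most abundant called members in a comparison and any needed for a count of 5 or fewer, and the 5 closest matches were named for each member. miR-1, miR-486, miR-451 and miR-142-5p were named from the cell-type lists. miR-29c, the uncalled family members and the other white-cell miRNAs were named after their values were seen.

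The 5 animals sampled on both diets pair libraries through the animal numbers in the labels. Their deviations from the group means correlated at 0.288, -0.111, 0.165, 0.398 and 0.599, and the estimated correlation within an animal was 0.392. All other libraries are from different steers. No library was a copy of another, as even the most similar pair differed by more than sampling noise (chi-square divided by its degrees of freedom, 81.4). The counting error given for the log2 ratio covers the counting of reads only, since reads carry no molecular identifiers. Ranges of counts over libraries also hold differences between animals, diets and sequencing depth.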

Additional observations from a re-analysis of the deposited data

Results flagged for a closer look

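High-RFI Charolais concentrate replicate 3 was far from the other 7 libraries of its group in both members, beyond Dixon's 95% limit. It had 976.4 CPM of miR-103, against 375.6 in the next library, and 328.8 CPM of miR-107, against 124.4. Its miR-451 was 49098 CPM, the highest of all 64 libraries. Both values come from the same library and are not separate. Of 24 tests over 8 groups and 3 measures, these 2 passed the limit, where chance passes about 1 in 20. Without this library the diet difference was 0.43 for miR-103 and 0.32 for miR-107.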

How the results depend on the processing

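Values are log2 differences with edgeR adjusted p unless another tool is named, and the cause of a change was not tested except where the construction shows it. With total counts without scaling factors, which moved the median of all miRNAs on diet to -0.24, the diet calls were lost in Charolais (miR-103 0.51, miR-107 0.43) and on average (0.27 and 0.15). There miR-107 was at -0.13 for diet in Holstein-Friesian and -0.021 for RFI in Charolais on grass, and miR-103 at 0.0081 for breed on average and -0.042 for RFI in Holstein-Friesian on grass. With total counts without miR-10b, miR-107 was at -0.062 for RFI in Charolais on grass and miR-103 at 0.052 for breed on average. RFI in Holstein-Friesian on grass turned for miR-103 with DESeq2 size factors (-0.045), DESeq2 (-0.045) and no filter (-0.014), and after dropping the 5 repeated steers' concentrate libraries (-0.055), and for miR-107 with limma-voom (0.032). Without those libraries the ratio for RFI in Charolais on concentrate was 0.0018. The diet calls of miR-107 in Charolais and on average were lost with no filter (0.65 and 0.39, adjusted p = 0.054 and 0.074) and with limma-voom (0.49 and 0.32, adjusted p = 0.0536 and 0.0515). With the animal as a random replicate block in limma-voom, the average diet call of miR-107 was lost (0.29, adjusted p = 0.0645), and RFI values turned for miR-103 in Holstein-Friesian on grass (-0.023), miR-103 by diet (0.013) and miR-107 on average (0.010). With animals as a fixed replicate block, RFI turned for miR-103 in Charolais (0.015) and Holstein-Friesian (-0.00091) on grass and for miR-107 on average (0.017). Neither block changed another call of the pair. As a difference of group medians the ratio was -0.055 for breed on grass, -0.14 for diet in Holstein-Friesian and -0.12 for diet on average.

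With the red-cell covariate, diet was 0.027 and -0.025 (miR-103, miR-107) in Charolais and 0.091 and -0.024 on average, and -0.022 for miR-107 in Holstein-Friesian. Breed was -0.16 and -0.14 on grass, and breed by diet 0.13 and 0.0033. RFI was 0.089 for miR-103 in Charolais on grass, 0.16 for miR-107 in Holstein-Friesian on grass, and 0.015 and 0.028 on average. With the white-cell covariate, diet was 0.081 and 0.025 in Charolais and 0.10 and -0.014 on average, and -0.053 for miR-107 in Holstein-Friesian. Breed was -0.24 and -0.21 on grass and -0.21 and -0.25 on average, and breed by diet 0.044 for miR-103. RFI was 0.22 for miR-103 in Charolais on grass, 0.068 for miR-107 in Holstein-Friesian on grass, and 0.075 and 0.091 on average.

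Leaving out 1 library at a time gave these ranges. Diet for miR-107 ran from 0.45 to 0.80 in Charolais and from 0.32 to 0.52 on average. RFI in Charolais on grass ran from -0.15 to 0.089 (miR-103) and from -0.034 to 0.21 (miR-107), and on concentrate from -0.023 to 0.79 and from -0.021 to 0.83. RFI in Holstein-Friesian on grass ran from -0.19 to 0.066 and from -0.17 to 0.058, RFI on average from -0.15 to 0.052 and from -0.14 to 0.072, and RFI by diet from -0.21 to 0.20 and from -0.25 to 0.17. Breed on grass ran from -0.028 to 0.11 and from -0.027 to 0.10, breed on average from -0.21 to -0.020 and from -0.26 to -0.076, breed by diet from -0.51 to -0.14 and from -0.62 to -0.26, and RFI by breed from -0.63 to -0.22 and from -0.74 to -0.32. The ratio ran from -0.21 to -0.16 for diet in Holstein-Friesian, where 12 of the libraries cost the call, from -0.0069 to 0.042 for breed on grass, from -0.033 to 0.064 for RFI in Holstein-Friesian on grass and from -0.0038 to 0.020 for RFI on average.

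The numbers of called miRNAs moved by over 1.5 times as follows. Breed on grass went from 96 to 50 and diet in Charolais from 66 to 42 with total counts, and diet in Charolais to 31 and 30 with the red-cell and white-cell covariates. Breed on average went from 69 to 40 with total counts and to 114 without miR-10b. Breed on concentrate (5) ran from 1 to 9, and breed by diet (11) from 1 to 16, over the alternatives that keep single libraries. RFI in Holstein-Friesian on concentrate went from 0 to 3 with total counts without miR-10b, to 3 with the white-cell covariate and to 2 without the repeated steers. Leaving out 1 library at a time, breed by diet ran from 8 to 29 (highest without Low-RFI Holstein-Friesian grass replicate 7), breed on concentrate from 3 to 8, RFI in Holstein-Friesian on concentrate from 0 to 4 and RFI by breed from 0 to 1. Diet in Charolais fell to 40 without High-RFI concentrate replicate 3. The lowest count behind a value of the pair was 212.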
